A study of Mus musculus with 146 samples.

Results

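Raet1d encodes a cell-surface ligand of NKG2D, the activating receptor of natural killer (NK) cells and some T cells. In cultured macrophages of 146 outbred mice, 5 libraries held almost no Raet1d transcript, under 0.2 CPM (counts scaled to 1000000 per library). They are compared here with the 124 libraries at 12.6 CPM or more, and the 17 libraries between these limits are described apart. The groups were chosen by the level of Raet1d itself, so that level is a description and not a result. The study sequenced polyadenylated RNA of bone marrow-derived macrophages, 1 library per mouse, to relate gene networks to wound healing. All mice were Crl:CFW(SW)-US_P08 (CFW) animals of 16 weeks, their marrow cells were grown for 5 days with L929-conditioned medium, and no group was treated. The Raet1d-silent group had 4 libraries labelled male and 1 labelled female, the intermediate group 7 and 10, and the Raet1d-expressing group 49 and 75. The mice differ in genotype from one to the next, and genotypes were not analysed here.

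NKG2D ligands in the mouse fall into 3 families: the Rae-1 proteins from the Raet1 genes, the H60 proteins, and MULT1 from Ulbp1. They are distant relatives of MHC class I molecules, are typically induced by stress, infection or transformation, and mark a cell for attack by NKG2D-bearing lymphocytes. Inbred strains are known to carry different sets of Raet1 and H60 genes. The count table held 5 ligand genes, all on chromosome 10: Raet1d, Raet1e, H60b, H60c and Ulbp1. Raet1a, Raet1b, Raet1c and H60a have no row and were not analysed here.

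Raet1d (ENSMUSG00000078452) lies at chr10:22360552-22374139 on the plus strand of GRCm38, as annotated in GENCODE M21. Raet1e (ENSMUSG00000053219) is annotated at chr10:22158569-22374139 and H60b (ENSMUSG00000075297) at chr10:22158586-22288849, both on the plus strand, so the annotated Raet1e spans the other two. Of the 2159 exonic bases of Raet1e, 363 are also exonic in Raet1d and 133 in H60b. The coding sequences of Raet1d (747 bases) and Raet1e (753 bases) were identical at 95.8% of 741 aligned positions, against 64.3% for Raet1d and H60b. The 120-base stretch where the first pair differs most is given, with differing bases in capitals. Reads that cover these bases can be told apart, and the pair also differs elsewhere, with 31 mismatches in the coding alignment. The stretch lies in exon 5 of 7 in both genes, at chr10:22371477-22371596 in Raet1d and chr10:22181235-22181354 in Raet1e, and 11 of its bases differ.
Raet1d coding stretch: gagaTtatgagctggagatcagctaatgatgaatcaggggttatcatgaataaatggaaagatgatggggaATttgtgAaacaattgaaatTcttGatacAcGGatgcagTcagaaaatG
Raet1e coding stretch: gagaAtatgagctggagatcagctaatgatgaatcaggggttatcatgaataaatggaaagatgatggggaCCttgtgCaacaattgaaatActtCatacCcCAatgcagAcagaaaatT

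The likeness extends to the promoters, shown because one gene of the pair was nearly silent in 5 mice in which the other was not. The 250 bases before the RefSeq start (GRCm38.p6, plus strand) were taken for Raet1d at chr10:22361644-22361893 and for the more similar of 2 Raet1e entries at chr10:22173247-22173496. They differed at 3 of 248 aligned positions, which are in capitals. Both stretches lie inside the genes as annotated in GENCODE M21, which start earlier, at 22360552 for Raet1d and 22158569 for Raet1e. Both are sequences of the reference genome, and those of the 5 mice were not analysed.
Raet1d promoter: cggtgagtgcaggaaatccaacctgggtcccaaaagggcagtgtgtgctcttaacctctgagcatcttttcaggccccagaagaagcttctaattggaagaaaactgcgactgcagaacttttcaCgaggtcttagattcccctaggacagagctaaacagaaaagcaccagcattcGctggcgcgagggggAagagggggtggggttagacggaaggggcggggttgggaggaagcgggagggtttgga
Raet1e promoter: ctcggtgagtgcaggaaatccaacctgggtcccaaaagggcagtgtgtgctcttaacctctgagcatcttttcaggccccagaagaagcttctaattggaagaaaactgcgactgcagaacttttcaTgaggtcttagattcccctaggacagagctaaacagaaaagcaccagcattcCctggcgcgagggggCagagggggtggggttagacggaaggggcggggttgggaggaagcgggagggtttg

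Depth was 26972274 to 61529398 counts in the silent libraries, 21568566 to 115110641 in the intermediate ones and 14483441 to 120926429 in the expressing ones. The silent libraries came from 3 of the 7 plates and 3 of the 28 collection dates in the labels. Males 3 and 5 shared plate 10 and a date, and male 59 and female 86 shared plate 8 and a date. Whether mice of 1 date were related is not given in the labels. By Y-linked counts, 6 libraries of the series go against their sex label, and 2 of these are silent: the library labelled male 59 had 0.0283 CPM of Y-linked genes and the library labelled female 86 had 283 CPM. The macrophage genes Csf1r (the growth factor receptor on which macrophages depend) and Cd68 (a lysosomal glycoprotein) lay at 1629 to 1873 and 1677 to 2082 CPM in the silent libraries, against 1397 to 2093 and 1298 to 2148 CPM in the expressing ones.

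Raet1d had 1 count in the library labelled male 59, 1 in male 3, 3 in the library labelled female 86, 2 in male 27 and 4 in male 5, together 11 of 191163163 counts. That is 0.0283, 0.0371, 0.0488, 0.0518 and 0.139 CPM. The 124 expressing libraries held 13.1 to 49.5 CPM, with a median of 26.0 CPM. The lower threshold falls in a gap, since no library lay between male 5 at 0.139 CPM and female 1 at 5.70 CPM. No such gap exists at the upper one, where male 31 lay just outside at 12.5 CPM and female 29 just inside at 13.1 CPM. Of the 50-base sequences of Raet1d, 55.8% also occur in Raet1e, so the counts of both genes are uncertain.

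H60b encodes another NKG2D ligand and starts upstream of Raet1d. Besides Raet1d, it was the one gene called in the main edgeR fit, and it was lower in the Raet1d-silent mice. All 5 silent libraries had 0 counts of H60b, while the 124 expressing libraries had 0 to 15.2 CPM with a median of 6.87 CPM and a mean of 6.64 ± 3.20 CPM (SD). A count of 0 allows up to 0.0488 to 0.111 CPM in a single silent library and up to 0.0157 CPM over all 5, taking 3 counts as the limit. Against that limit over the group, H60b counts were at least 423-fold lower in silent than in expressing mice. The limit covers counting error only, and how well reads of these outbred mice align to the reference H60b was not tested. By edgeR's quasi-likelihood test with plate as covariate the difference had an adjusted p = 3.55e-08. Over all genes this fit called 2 of 12929, or 0.0155%, and these were H60b and Raet1d, which chose the groups. The groups overlapped, because 7 expressing libraries also had 0 counts of H60b, and 117 of 124 lay above every silent library.

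The call of H60b held when each silent library was left out in turn (adjusted p = 1.36e-06 to 4.88e-06), and also without the libraries that go against their sex label (adjusted p = 0.000488), an alternative chosen after seeing the data. It held with DESeq2 (adjusted p = 3.13e-19) and was lost with limma voom, where the log2 difference was -8.74 with an unadjusted p = 0.0802 and an adjusted p = 1.00. H60b shares 7.58% of its 50-base sequences with Raet1e and none with Raet1d.

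**Figure D1:**
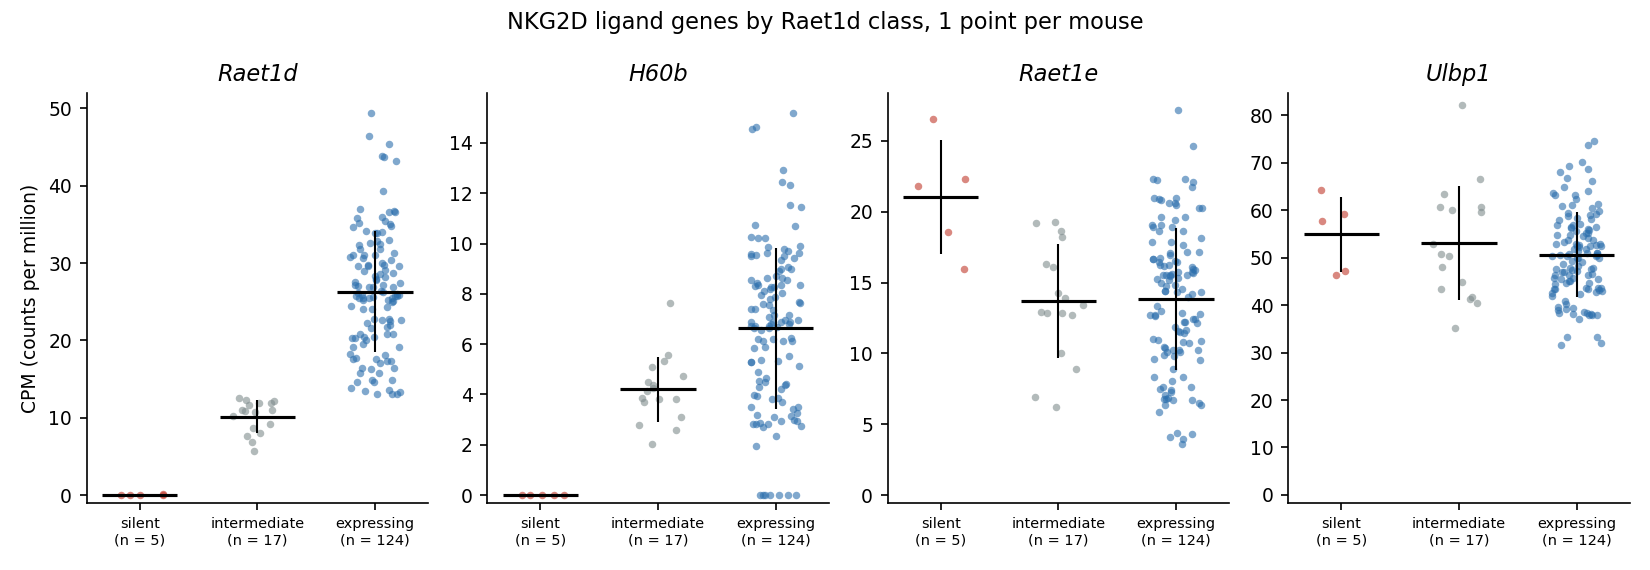
Level in CPM (vertical axes, linear) of 4 NKG2D ligand genes in Raet1d-silent, intermediate and expressing libraries, 1 point per mouse, with the mean as a horizontal bar and 1 SD as a vertical line. Raet1d chose the groups. H60b is at 0 in all 5 silent libraries and in 7 expressing ones, Raet1e is at 15.9 to 26.6 CPM in silent libraries, and Ulbp1 covers like ranges in all 3 groups.

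The 12 libraries without H60b counts did not all lack Raet1d. The 7 in the expressing group (females 10, 30, 32, 49 and 62, males 21 and 28) came from 5 plates and held 16.4 to 25.8 CPM of Raet1d. None of the 17 intermediate libraries was at 0 for H60b, where the range was 2.05 to 7.62 CPM. The lowest H60b level above 0 in the series was 1.97 CPM, from 116 counts, so H60b, like Raet1d, was either at the floor or well above it. H60b was thus at 0 in 5 of 5 Raet1d-silent libraries, and 5 of the 12 libraries at 0 for H60b were Raet1d-silent.

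Raet1e, the near copy of Raet1d, was present in every silent library. It had 26.6 CPM in the library labelled male 59, 18.6 in male 3, 21.8 in the library labelled female 86, 22.3 in male 27 and 15.9 in male 5, against 3.59 to 27.2 CPM with a median of 14.4 CPM in the expressing libraries. All silent libraries were above the expressing median, and 80 of the 124 expressing libraries lay below the lowest silent one. The fitted log2 difference was 0.75 (95% interval 0.28 to 1.21), which did not pass over all genes (adjusted p = 1.00). This value is a description, since 44.7% of the 50-base sequences of Raet1e occur in other genes, 40.3% in Raet1d, and reads of one may be counted for or withheld from the other.

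Within a collection date, the silent libraries were above every expressing one for Raet1e. On the date of males 3 and 5 they had 15.9 and 18.6 CPM, against 6.52 to 15.0 CPM in 7 expressing libraries. On the date of the libraries labelled male 59 and female 86 the silent values were 26.6 and 21.8 CPM, against 6.68 to 15.6 CPM in 5 expressing libraries. Male 27 had 22.3 CPM, against 10.1 to 16.1 CPM in 6 expressing libraries of its date. These dates held only 1 or 2 silent libraries each, and the share of all genes that separate this way was not counted. Within plates, 1 of 18 expressing libraries on plate 10 and 1 of 21 on plate 3 exceeded the silent values, so the ranges overlapped there. On plate 8 they did not, with 21.8 and 26.6 CPM in the silent libraries, against 3.59 to 17.1 CPM in 19 expressing ones. On every one of these dates H60b was above 0 in all expressing libraries.

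Summed over Raet1d and Raet1e, whose reads are hard to separate, the silent libraries held 16.1 to 26.6 CPM, the intermediate ones 13.8 to 31.4 CPM and the expressing ones 19.95 to 61.8 CPM. The median of this sum was 21.8 CPM in the silent, 23.0 in the intermediate and 40.4 in the expressing group. The sum contains the gene that chose the groups, so the order of the medians is a description.

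**Figure D2:**
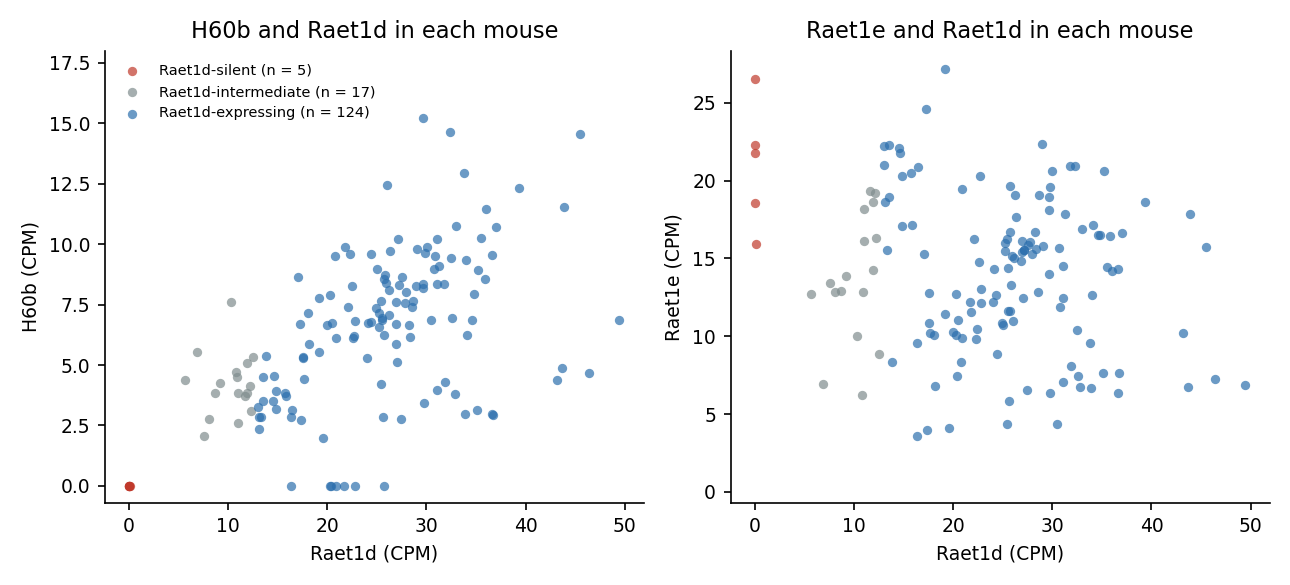
H60b (left) and Raet1e (right) on the vertical axes against Raet1d on the horizontal axes, all in CPM, 1 point per mouse, coloured by Raet1d group. The 5 silent libraries sit at 0 for H60b and at 15.9 to 26.6 CPM for Raet1e, and 7 expressing libraries with 16.4 to 25.8 CPM of Raet1d also sit at 0 for H60b.

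The remaining ligand genes lie elsewhere on chromosome 10. Ulbp1 (ENSMUSG00000079685, chr10:7440362-7473638, minus strand), the gene of MULT1, had 47.1 CPM in the library labelled male 59, 57.8 in male 3, 64.1 in the library labelled female 86, 46.3 in male 27 and 59.1 in male 5, against 31.7 to 74.5 CPM in the expressing libraries. The silent values lay inside the expressing range. The log2 difference was 0.05 (95% interval -0.17 to 0.28), and the adjusted p by edgeR was 1.00. H60c (ENSMUSG00000091618, chr10:3256208-3267771, minus strand) had 1 count in male 27 and 0 in the other 4 silent libraries, and at most 0.0942 CPM in the expressing ones, so it was too low to test. Of the 3 ligand genes other than Raet1d that could be tested, 1 was called, H60b, which was lower in silent mice.

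The other genes around Raet1d gave no call. Within 2 Mb on chromosome 10, GENCODE M21 lists 92 genes, of which 35 had a row in the table and 14 passed the filter on low counts. The 21 that did not pass averaged at most 0.0334 CPM over all libraries. Beside Raet1d, H60b and Raet1e, 11 genes were tested, and in the main edgeR fit none was called or had an unadjusted p under 0.05. Over all tested genes 0.0155% were called and 3.55% had an unadjusted p under 0.05. Their log2 differences ran from -0.15 to 0.18, and their 95% intervals from -0.62 to 0.70.

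The closest of these was Tbpl1, a relative of the TATA-binding protein, 0.33 Mb away. It had 43.1, 47.8, 47.7, 46.5 and 37.5 CPM in the silent libraries labelled male 59, male 3, female 86, male 27 and male 5, against 39.4 to 63.3 CPM in the expressing ones. Its log2 difference was -0.09 (95% interval -0.19 to 0.02), with the smallest unadjusted p of the 11 genes (0.0954) and an adjusted p of 1.00 by edgeR. Sgk1, a serum- and glucocorticoid-regulated kinase on the other side at 0.36 Mb, had 92.2 to 140 CPM in silent and 67.5 to 228 CPM in expressing libraries, with a log2 difference of -0.08. Eya4, a transcriptional coactivator and phosphatase, differed by -0.10 on the log2 scale. Myb, the transcription factor of blood progenitors, was at 4.87 to 11.8 CPM in silent and 2.24 to 38.1 CPM in expressing libraries, and its interval was the widest of the group (-0.62 to 0.70).

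The log2 difference of Stx7, a syntaxin of late endosomes, was -0.02 (95% interval -0.13 to 0.09), and that of Mtfr2, a regulator of mitochondrial fission, was 0.01 (-0.14 to 0.16). The rescue factor of stalled ribosomes Hbs1l differed by -0.02 (-0.11 to 0.06) and the ribosomal protein gene Rps12 by -0.15 (-0.35 to 0.06), both uncertain because 31.4% and 25.1% of their 50-base sequences occur in other genes. Ahi1, a protein of the cilium base, differed by 0.04 and Pde7b, a cyclic nucleotide phosphodiesterase, by -0.03, and Slc18b1, a polyamine transporter, by 0.18 (-0.17 to 0.53).

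**Figure D3:**
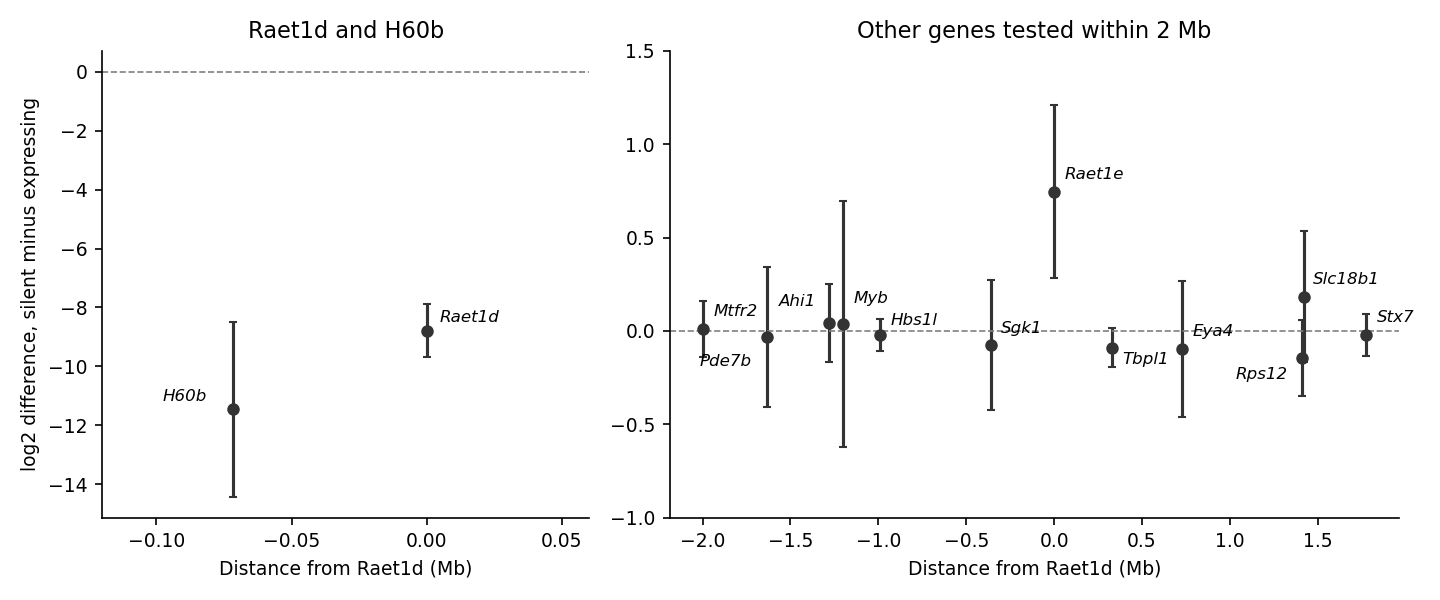
Log2 difference between silent and expressing libraries (vertical axes, silent minus expressing, with 95% intervals) against the distance of the gene from Raet1d in Mb. The left panel shows Raet1d, which chose the groups, and H60b, whose fitted value is no bound since all silent libraries are at 0. In the right panel the genes other than Raet1e lie between -0.15 and 0.18, and Raet1e is at 0.75.

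Outside the 2 Mb window no gene passed. Of 12915 genes tested there by edgeR, 0 were called, the lowest adjusted p was 0.368, and 456 had an unadjusted p under 0.05, 195 higher and 261 lower in silent mice. Of these 12915 genes, 601 lie on the rest of chromosome 10, where 20 had an unadjusted p under 0.05, or 3.33%, against 3.55% over all tested genes. DESeq2 called 2 genes outside the window and limma voom 0, with 505 and 395 unadjusted p-values under 0.05 over all genes. The median log2 difference over all tested genes was -0.004 and the median standard error 0.0929.

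The 4 genes with the smallest p outside the window were chosen after their values were seen, and all had an adjusted p of 0.368. Mageh1, a MAGE family gene on the X chromosome, had 0.0566 to 0.493 CPM in silent libraries, against 0.181 to 1.85 CPM in expressing ones, a log2 difference of -1.50 ± 0.37 (SE), and DESeq2 called it (adjusted p = 0.0371). Ank2, a membrane adaptor protein, had 2.41 to 2.99 CPM in 4 silent libraries and 6.74 CPM in male 27, against a median of 6.88 CPM in the expressing ones. Oaz1, which encodes an inhibitor of polyamine synthesis, lies 58.5 Mb from Raet1d and differed by -0.30 ± 0.08 (SE) on the log2 scale. Gm10282 differed by 0.45 ± 0.11 (SE). Gm10282 and Oaz1 are uncertain because 74.05% and 20.99% of their 50-base sequences occur in other genes. DESeq2 also called 2010005H15Rik, at 0 counts in all 5 silent libraries and also in 88 of the 124 expressing ones, and uncertain because 20.4% of its 50-base sequences occur in other genes.

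**Figure D4:**
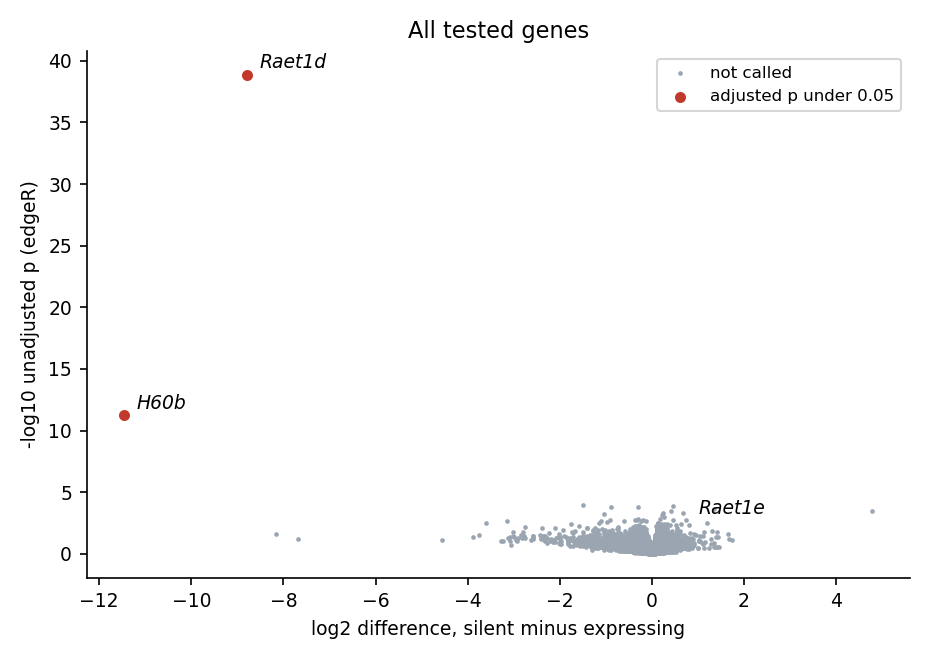
All 12929 tested genes, with the log2 difference of silent minus expressing libraries on the horizontal axis and the negative log10 of the unadjusted edgeR p on the vertical axis. Raet1d, which chose the groups, and H60b are the 2 genes with an adjusted p under 0.05 and lie far to the lower side, and Raet1e is among the genes that were not called.

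The genes that receive or relay the NKG2D signal did not pass, where 0.0155% of all tested genes were called. The list of the receptor and its signalling had 9 tested members, with 0 called and a median log2 difference of -0.02. Klrk1, the gene of NKG2D itself, was at 0.139 to 1.45 CPM in silent and 0.0189 to 1.64 CPM in expressing macrophages, with a log2 difference of 0.27 ± 0.41 (SE). Hcst, the gene of its adaptor DAP10, was at 3.54 to 7.45 CPM in silent and 2.26 to 9.77 CPM in expressing libraries. Tyrobp, the gene of the adaptor DAP12 that many myeloid receptors also use, was at 557 to 707 CPM in silent and 429 to 805 CPM in expressing libraries. Of 11 tested ligand genes of other NK cell receptors 0 were called, and Clec2i, a lectin-like ligand of the NKR-P1 receptors, had the smallest p among them at a log2 difference of -0.31 ± 0.20 (SE).

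Pathways known to induce, anchor or release NKG2D ligands gave no call. Over all tested genes only 0.0155% were called, so 0 calls in lists this short carry little information. In the lists of DNA damage signalling, E2F factors and targets, ligand shedding and release, GPI anchor synthesis, interferon response, NF-kB targets and cytokines, and mitosis, 0 of 13, 13, 8, 20, 18, 12 and 14 tested members were called. The medians of the log2 differences in the same order were 0.01, -0.02, -0.01, -0.01, 0.05, -0.12 and 0.02. Atr, the kinase that senses stalled replication forks, was at 42.7 to 58.3 CPM in silent and 34.8 to 64.6 CPM in expressing libraries. Timp3, an inhibitor of the proteases that release surface proteins, had a log2 difference of -1.77 ± 0.95 (SE) at 0.156 to 1.04 CPM in silent and 0 to 16.2 CPM in expressing libraries, and is uncertain because 21.4% of its 50-base sequences occur in other genes. Ptgs2, the inducible cyclooxygenase, had 1.46 to 2.20 CPM in silent and 0.849 to 12.8 CPM in expressing libraries, a log2 difference of -0.93 ± 0.41 (SE) with an unadjusted p = 0.0242 and an adjusted p = 1.00 by edgeR.

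Cholesterol biosynthesis, the network named in the title of the study, gave no call: 0 of 20 tested genes were called, with log2 differences of -0.13 to 0.09 and a median of 0.01. Fdps, which makes farnesyl diphosphate, was at 16.6 to 29.0 CPM in silent and 7.22 to 44.4 CPM in expressing libraries, a log2 difference of -0.09 ± 0.16 (SE), and is uncertain because 26.2% of its 50-base sequences occur in other genes. Over the 18 lists other than the ligands, 0 of 189 tested genes were called, against 0.0155% of all tested genes. Of these 189 genes, 2 (1.06%) had an unadjusted p under 0.05 by edgeR, against 3.55% of all tested genes. Their median log2 difference was -0.02, against -0.004 over all tested genes.

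Markers of other blood and marrow cells gave no call, where 0.0155% of all tested genes were called. Summed over the list, macrophage markers lay at 13544 to 17570 CPM in silent and 12521 to 26404 CPM in expressing libraries. T and NK cell markers summed to 2.41 to 4.74 CPM in silent and 1.06 to 8.34 CPM in expressing libraries, with Gzma at 0 in all silent ones, and B cell markers to 1.56 to 3.15 and 0.622 to 9.52 CPM. Granulocyte and precursor markers summed to 268 to 508 CPM in silent and 77.1 to 1775 CPM in expressing libraries, and Cebpe, a transcription factor of granulocyte maturation, was the second list gene with an unadjusted p under 0.05 (log2 difference 0.44 ± 0.18 (SE), adjusted p = 1.00 by edgeR). Stromal markers had the lowest median log2 difference of all lists, at -1.90 over 6 tested genes, and none was called. Their sums were 4.41 to 9.68 CPM (median 5.90) in silent and 1.79 to 72.5 CPM (median 8.14) in expressing libraries. In bulk RNA, fewer cells of a type and less RNA per cell cannot be told apart.

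**Figure D5:**
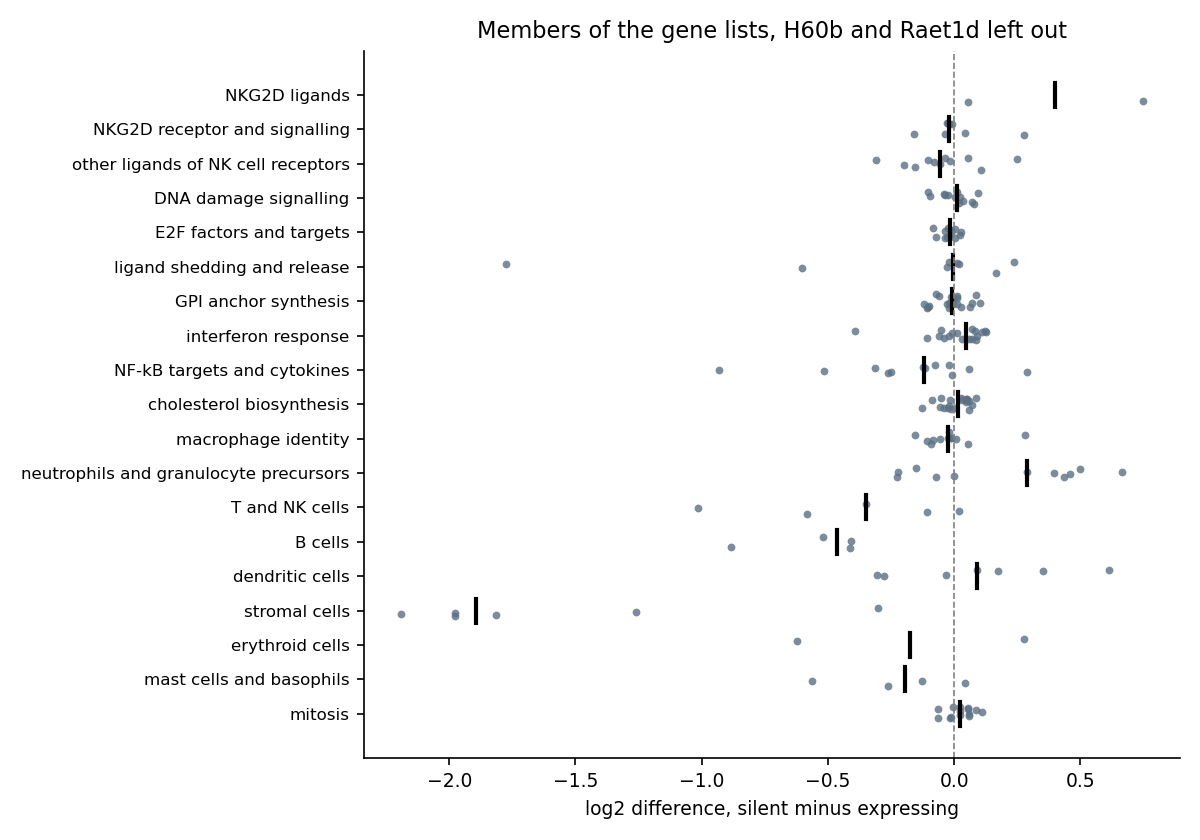
Log2 difference of silent minus expressing libraries (horizontal axis) for each tested member of the 19 gene lists (rows), with the median of each list as a black bar. H60b and Raet1d are left out, so the ligand row holds Raet1e and Ulbp1. The 20 cholesterol genes lie between -0.13 and 0.09, and the 6 stromal markers have a median of -1.90.

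The 17 intermediate libraries came from 5 plates and 12 dates and held 5.70 to 12.5 CPM of Raet1d. H60b was at 2.05 to 7.62 CPM in them, against 0 to 15.2 CPM in expressing libraries, a log2 difference of -0.58 ± 0.29 (SE) with an adjusted p = 0.159 by edgeR. Raet1e was at 6.21 to 19.3 CPM, against 3.59 to 27.2 CPM in expressing libraries, and its log2 difference was 0.06 ± 0.14 (SE). Ulbp1 was at 35.2 to 82.03 CPM in intermediate and 31.7 to 74.5 CPM in expressing libraries.

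The count of genes called between intermediate and expressing libraries rested on the covariate. With plate in the edgeR model 1431 of 12944 genes were called, or 11.1%, Raet1d included. With the collection date in place of plate 1 gene was called, or 0.00773%, and that was Raet1d, which chose the groups. In that fit 2594 genes had an unadjusted p under 0.05. The cholesterol biosynthesis list had 16 of 20 members called with plate and 0 with date. Apart from Raet1d, the comparison of silent with expressing mice called H60b alone, both with plate and with date. Both comparisons share the 124 expressing libraries.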

How the data were processed

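RNA-seq libraries of 146 mice were analysed. Per the submitters' processing notes, FastQC, TopHat2 2.0.11, HTSeq 0.6.1 and DESeq2 were used on GRCm38 (mm10). The annotation release and the HTSeq overlap mode are not given in the sources used here. The deposited table of raw counts has 22721 genes, and its column sums gave the depth and CPM. The authors' second deposited table holds log2 values of a variance-stabilising transformation (VST) for 10893 genes, without Raet1d and H60b. Names came from GENCODE M21, which matched 21899 genes. The kit is not described as stranded, so overlapping and antisense reads may be shared.

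Groups followed the Raet1d CPM. Counts were tested with edgeR 4.0.16 in R 4.3.3: TMM, filterByExpr by group, quasi-likelihood test, plate as covariate, Benjamini-Hochberg adjustment over all tested genes, threshold 0.05. Raet1d and genes sharing its sequence stayed in the fit. The SE is the absolute log2 difference divided by the square root of F, and 95% intervals use the t distribution. CPM ± values are SDs. Limits at 0 use 3 counts and cover counting error only. Alternatives were DESeq2 1.42.0, limma 3.58.1 voom, RLE factors, other filters, covariates and library sets, and limma on the VST values. The scripts' tests were checked on simulated data. No 2 libraries agreed within sampling noise (lowest chi-square per degree of freedom 15.5 over 10585 pairs).

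Named genes were Raet1d, all ligand genes, called genes (largest changes where many), and up to 3 genes per list by p, of which the text gives some and some are not reported here. The members and lists were chosen with earlier results of these data known. Genes with 20% or more of 50-base sequences shared with another gene are marked uncertain. Promoters are from RefSeq (GRCm38.p6), matched by symbol for 4 of the 5 ligand genes.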

Additional observations from a re-analysis of the deposited data

Results flagged for a closer look

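Among the 5 silent libraries, 1 library stood far from the other 4 for 11 of the 75 genes examined with any spread. Chance marks about 1 in 20 groups of samples, but that rate does not apply to genes that entered through a value of 1 library or have counts in 1 silent library alone. Male 5 was low for Rb1, the retinoblastoma protein gene, at 72.4 CPM against 98.0 to 108 CPM in the other silent libraries, and low for the chemokine gene Ccl2 at 304 CPM against 501 to 556 CPM. Both values lay inside the expressing range of 51.8 to 141 and 143 to 827 CPM. Male 27 was high for Ank2 at 6.74 CPM and for Akap12, a kinase anchoring protein gene, at 2.62 CPM, against at most 2.99 and 1.11 CPM in the other silent libraries. It alone among the silent libraries had counts of H60c (0.0259 CPM), Togaram2 (0.130 CPM) and ENSMUSG00000095162 (0.104 CPM), so these 3 stand out by construction, and Togaram2 and ENSMUSG00000095162 were examined because they were called without a filter on low counts. The library labelled female 86 was high for the antimicrobial peptide gene Camp at 3.49 CPM, against 0.959 to 1.36 CPM. Male 3 was high for the B cell gene Cd79a at 0.408 CPM, against at most 0.104 CPM. The library labelled male 59 was high for the dendritic cell gene Xcr1 at 1.56 CPM, against at most 0.452 CPM, and for the haemoglobin gene Hbb-bs at 0.368 CPM, against at most 0.0778 CPM. Hbb-bs is uncertain, since it shares sequence with a near copy.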

How the results depend on the processing

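The count of genes called within 2 Mb (1, H60b) and of ligand genes called (1, H60b) was unchanged under 15 of 16 alternatives and was 0 in both cases with limma voom. The VST values, which do not hold H60b, gave no value for either. The count of genes called elsewhere (0) was 2 with DESeq2 (Mageh1 and the uncertain 2010005H15Rik), 3 without a filter (Togaram2, Gm16503 and ENSMUSG00000095162, each near 0 CPM), 1 without a covariate and 1 without the libraries against their sex label, and 0 under the others. The cause of these differences was not tested. Leaving out each silent library in turn gave 1 to 1, 1 to 1 and 0 to 0 genes called within 2 Mb, among ligands and elsewhere. The count of 1430 genes other than Raet1d called in intermediate libraries was 1507 with voom, 1523 with a mean of at least 1 CPM, 1532 with plate and sex, and 0 with the collection date in place of plate. The log2 difference of Raet1e ranged from 0.52 to 0.88 over 17 alternatives and was never called. The libraries against their sex label and the VST values were alternatives chosen after seeing the data. No paired analysis was possible because the replicate numbers only follow the order of the samples within a sex. With 5 silent libraries, genes with large SEs could not be resolved: at the median SE of 0.0929 small differences remain undetected.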

Other observations

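Other genes that were nearly silent in part of the 146 mice were so in 0 to 2 of the 5 Raet1d-silent libraries. Fggy, a carbohydrate kinase gene, lay under 0.1 of its median in 17 libraries, of which 1 was Raet1d-silent. Msh5, a meiotic mismatch repair gene, did so in 17 libraries, of which 2 were Raet1d-silent, and Vwf, the gene of von Willebrand factor, in 8, of which 1 was. The MHC class II gene H2-Eb1 did so in 10 libraries and the interferon-induced gene Ifi27l2a in 9, with 0 Raet1d-silent libraries among either. In the 5 Raet1d-silent libraries H2-Eb1 was at 20.7 to 36.7 CPM and Ifi27l2a at 19.3 to 35.9 CPM. No test was run on these overlaps.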
